A study of Ovis aries with 15 samples.

Results

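The genes described here are the SOX, GATA and T-box transcription factors, chosen as every gene name in the promoter tables that consists of SOX, GATA or TBX followed by a number. There were 28 of them among 18465 distinct gene names: 14 SOX, 4 GATA and 10 TBX genes. Chromatin carrying 3 histone marks had been sequenced from perirenal fat, the depot around the kidney, of wild type merino sheep that the labels give as untreated. Fetuses were at 132 days of gestation, with term at 150 days. The age of the lambs after birth is given as 80 days with the design and as 89 ± 7 days with the growth conditions. For H3K27ac and H3K27me3 there were 2 fetal and 2 lamb libraries each, and for H3K4me3 2 fetal and 3 lamb libraries. Within a stage, number 1 is the same animal in every mark, and so is number 2. Every lamb title carries the tag VEH, which the labels do not explain and which cannot be told apart from stage. The promoter tables give no values for the pooled input libraries, 1 per stage.

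All 3 families bind DNA and set cell identity in the embryo. SOX proteins carry an HMG box that bends DNA, GATA proteins carry zinc fingers, and TBX proteins carry the T-box domain of Brachyury. In many adult tissues the promoters of such regulators lie in chromatin held silent by Polycomb complexes, which deposit H3K27me3, and a regulator that a cell lineage uses carries H3K4me3 and H3K27ac instead. A promoter with H3K4me3 and H3K27me3 together is often called bivalent. In fat, GATA2 and GATA3 are known as brakes on adipocyte formation, SOX9 as a factor of uncommitted preadipocytes, TBX15 as a gene whose expression differs between depots, and TBX1 as a marker of beige adipocytes.

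The values are reads in a promoter window, rescaled so that the libraries of a mark can be compared, and they are called promoter values below. The labels do not state the width of the window, so an order between genes assumes windows of equal width. To place a gene among all others of its table, its percentile by mean promoter value is given, which does not depend on the scale. A change is the lamb mean less the fetal mean of log2(value + 1), given with its standard error (SE) and a p-value from limma adjusted over every promoter of that table, and a change was called at an adjusted p under 0.05. The labels name different animals as replicates. The H3K27ac libraries held 5061861 to 6257855 promoter reads, the H3K4me3 libraries 2476065 (lamb 2) to 17541582 (fetus 2), and the H3K27me3 libraries 324662 to 430345. In H3K4me3 the fetuses stood apart from each other, in opposite directions at weak and strong promoters. Fetus 1 was above fetus 2 at 21 of the 27 SOX, GATA and TBX promoters with a median ratio of 1.58, against a median of 1.29 over the weakest 3230 promoters, 0.712 over the strongest 3231 and 0.989 over all of them. Of 8 adipocyte markers 6 were in the H3K27ac table, a share near the 71.6% of all gene names, and PPARG and LIPE were not. Of the 6, ADIPOQ stood at percentile 95.7 in fetuses and 95.2 in lambs, while PNPLA2 stood at 6.66 and 7. The brown fat gene UCP1 stood at percentile 75.1 in fetuses and 22.6 in lambs, and its H3K27ac fell (-0.94, adjusted p = 0.000242).

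In all 3 marks the change depended on the level of the promoter. Split into 4 level groups of equal size by mean promoter value, H3K27ac promoters had a median change of 0.27 in the weakest group and -0.32 in the strongest, H3K4me3 promoters 1.09 and -0.54, and H3K27me3 promoters 0.21 and -0.37. Called changes of the SOX, GATA and TBX genes, and some others, are therefore also given against the median of their level group or under a scaling that removes this slope (cyclic loess). The changes of single marker genes, such as UCP1, mostly are not.

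**Figure D1:**
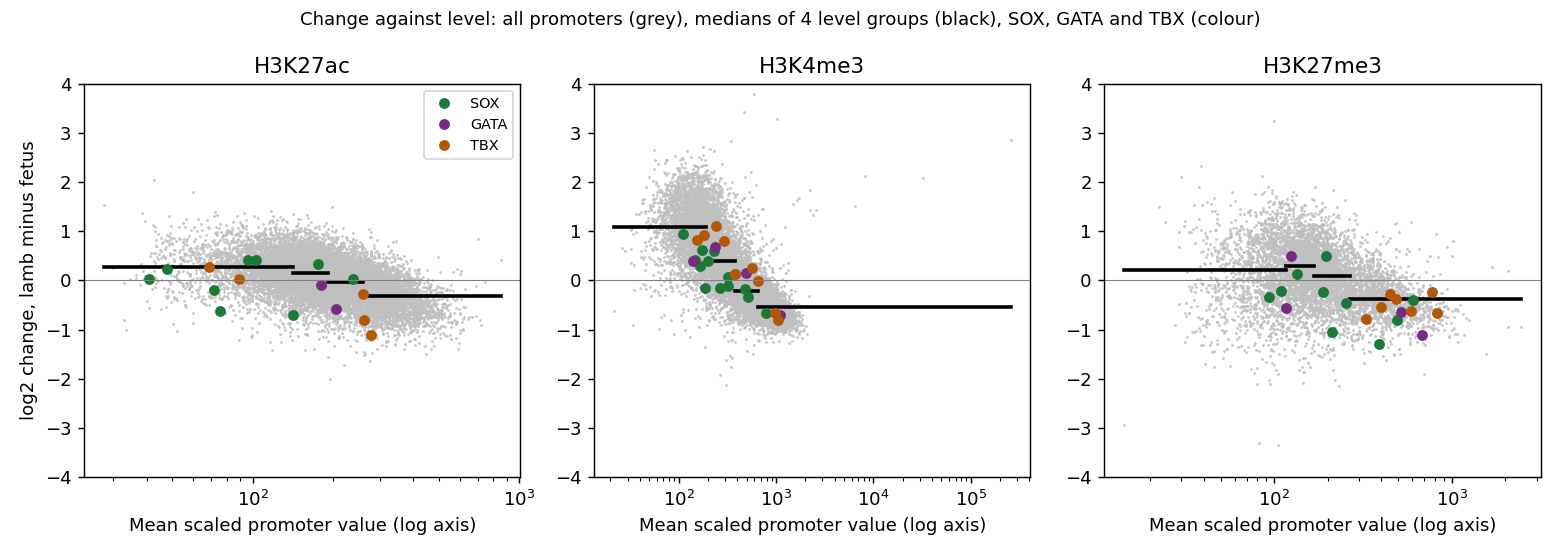
The log2 change from fetus to lamb is plotted against the mean promoter value (log axis) for all promoters of each table (grey), with the SOX, GATA and TBX promoters coloured by family and the median of each of the 4 level groups as a black bar. The bars step down from left to right for H3K27ac and H3K4me3, whereas for H3K27me3 the second bar (0.29) lies above the first (0.21) before the descent, and the strongest TBX promoters of H3K27ac lie below the bar of their level group.

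Which marks listed a gene separated the 28 genes before any comparison of stages. A promoter is listed in a table only if it reaches a deposited value of about 50 in some library (the lowest such maximum was 50.2 for H3K27ac, 50.7 for H3K4me3 and 51.5 for H3K27me3), so an unlisted gene is a weak or unmeasured one, not one shown to lack the mark. H3K4me3 listed 27 of the 28 genes (96.4%, against 70% of all gene names), H3K27ac listed 16 (57.1%, against 71.6%) and H3K27me3 listed 21 (75%, against 34.3%). All 4 GATA genes, 10 of 14 SOX genes and 7 of 10 TBX genes were in the H3K27me3 table. These shares describe the tables and were not tested. The deposited value of 1 read was 0.369 to 0.571 in H3K27ac and 3.43 to 3.57 in H3K27me3. The same listing value therefore stands for far fewer reads in H3K27me3.

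A group of 9 genes (32.1%, against 8.74% of all gene names) was listed in H3K4me3 and H3K27me3 and not in H3K27ac. It held GATA4 and GATA5, which act in the heart and endoderm, and SOX2, the pluripotency and neural factor. It also held the neural repressors SOX14 and SOX21, the hindlimb and lung gene TBX4, the heart gene TBX20, the T helper cell factor TBX21 and TBX15. A further 11 genes (39.3%, against 10.3%) were in all 3 tables: GATA3, GATA6, SOX5, SOX8, SOX9, SOX11, SOX17, SOX30, TBX2, TBX5 and TBX18. Of these, SOX8 and SOX9 lay under percentile 1 of the H3K27ac table in both stages. Listing in H3K27ac and H3K4me3 and not in H3K27me3, the pattern of 44.4% of all gene names, was found at 5 of the 28 (17.9%): SOX4, SOX13, SOX15, TBX3 and TBX6. SOX3 and TBX22 were in the H3K4me3 table alone and SOX10, the factor of Schwann cells and other neural crest derivatives, in the H3K27me3 table alone. RefSeq (assembly ARS-UI_Ramb_v3.0) names 38 sheep genes of these families, and 10 of them, GATA1, GATA2, SOX1, SOX6, SOX7, SOX12, SOX18, TBX1, TBX10 and TBX19, were not analysed here.

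H3K27ac marks active promoters. Of the 16 listed genes, 4 fell between fetus and lamb and none rose: TBX18 and TBX3 among 5 TBX genes, SOX4 among 9 SOX genes and GATA6 of the pair of GATA genes (limma adjusted p under 0.05; among all 13222 promoters 29.1% were called, 17.7% lower and 11.4% higher). The median change was -0.28 for TBX, -0.33 for GATA and 0.04 for SOX, against 0.02 over all promoters. Every lamb lay below every fetus at 6 of the 16 (37.5%, against 33.5% of all promoters) and above at 3 (18.8%, against 33%), so the count of separated groups was near the background. Unadjusted p was under 0.05 at 5 of the 16, against 41.1% of all promoters.

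TBX18, a gene of the epicardium, ureter mesenchyme and pericytes, had the strongest fetal H3K27ac of the listed genes. Its promoter values were 373 and 388 in the fetuses and 179 and 173 in the lambs. Both lambs lay far below both fetuses (ratio of the means 0.461, log2 change -1.11, SE 0.13, adjusted p = 2.36e-05), and TBX18 moved from percentile 90.4 of the table to percentile 40. TBX3, a repressor that holds back senescence and shapes limb, heart and mammary gland, had 360 and 306 in the fetuses and 186 and 193 in the lambs. It fell by 0.81 on the log2 scale (SE 0.14, adjusted p = 0.000428), from percentile 85.1 to 47.9. Both are in the strongest level group, where 46.4% of all promoters fell, and they lay 0.79 and 0.49 below its median change. Their calls remained with cyclic loess (TBX18 -0.95, adjusted p = 0.000329, and TBX3 -0.67, adjusted p = 0.00378), a setting in which 10.2% of all promoters fell, and when each library was left out in turn (8.9% of all promoters were called without lamb 1, 13.1% without lamb 2, 44.2% without fetus 1 and 41.8% without fetus 2).

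SOX4, which keeps progenitor cells in an immature state, had 185 and 166 in the fetuses and 104 and 112 in the lambs. It fell by 0.69 (SE 0.19, adjusted p = 0.0111), from percentile 45.5 to 9.01. The mean of SOX4 (141.8) lay at the upper edge (142.3) of the weakest level group. In that group 2.27% of promoters fell, and in the next one 5.81%. GATA6, a regulator of endoderm, heart and smooth muscle, had 292 and 204 in the fetuses and 168 and 159 in the lambs, and it fell by 0.58 (SE 0.17, adjusted p = 0.0175). The fetuses differed from each other more than the lambs did, and fetus 1 was the high one. With cyclic loess SOX4 (-0.90, adjusted p = 0.00507) and GATA6 (-0.60, adjusted p = 0.0233) kept their calls. Without lamb 1 the adjusted p was 0.209 for SOX4 and 0.0835 for GATA6, without lamb 2 it was 0.0981 and 0.113, and without fetus 1 it was 0.0832 for GATA6. The log2 change of GATA6 without fetus 1 was -0.32.

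SOX17, a factor of endoderm and arterial endothelium, is a weak H3K27ac promoter with 97.3 and 86.1 in the fetuses and 64.1 and 54.9 in the lambs. Its change of -0.62 (SE 0.27) missed the threshold (adjusted p = 0.0963), and it passed with cyclic loess (-0.95, adjusted p = 0.0156) and without fetus 2 (adjusted p = 0.0178). SOX17 stood at percentile 9.23 in fetuses and 1.20 in lambs. TBX6, a gene of paraxial mesoderm, had 299 and 268 in the fetuses and 231 and 237 in the lambs (change -0.28, adjusted p = 0.124, and 0.0369 without fetus 2), and in lambs it was the strongest TBX promoter.

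Several SOX promoters lay higher in the lambs without passing the test. SOX13, a relative of SOX5 that lacks a transactivation domain of its own, had 160 and 152 in the fetuses and 199 and 196 in the lambs (0.33, adjusted p = 0.122). SOX15 (0.41) and the spermatogenesis gene SOX30 (0.42) also had both lambs above both fetuses. The median change of their level groups was 0.15 for SOX13 and 0.27 for SOX15 and SOX30, and with cyclic loess the changes were 0.23, 0.11 and 0.14. All 3 passed without fetus 1 (adjusted p = 0.0357, 0.0385 and 0.0267), a setting in which 44.2% of all promoters were called. SOX5 was the strongest SOX promoter of H3K27ac in both stages, with 217 and 258 in the fetuses and 250 and 232 in the lambs (0.03, adjusted p = 0.913). SOX9, the cartilage and preadipocyte factor, was the weakest, with 43.1 and 37.9 in the fetuses and 40.8 and 42.4 in the lambs, under percentile 1 of the table in both stages (0.628 and 0.182).

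GATA3, which T cells and preadipocytes use, had 210 and 163 in the fetuses and 200 and 152 in the lambs, so that the stages overlapped (-0.09, adjusted p = 0.748). TBX5, the forelimb and heart gene, was the weakest TBX promoter of H3K27ac, with 60.2 and 61.7 in the fetuses and 95.5 and 57 in the lambs (0.27, adjusted p = 0.529). TBX3 and TBX5 are next to each other in the RefSeq gene order, and TBX3 had the stronger H3K27ac of the pair in both stages. TBX2, a repressor closely related to TBX3, had 99.6 and 76.4 in the fetuses and 87.5 and 91 in the lambs (0.03, adjusted p = 0.94). SOX8 and SOX11 overlapped between stages too (0.23 and -0.20).

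**Figure D2:**
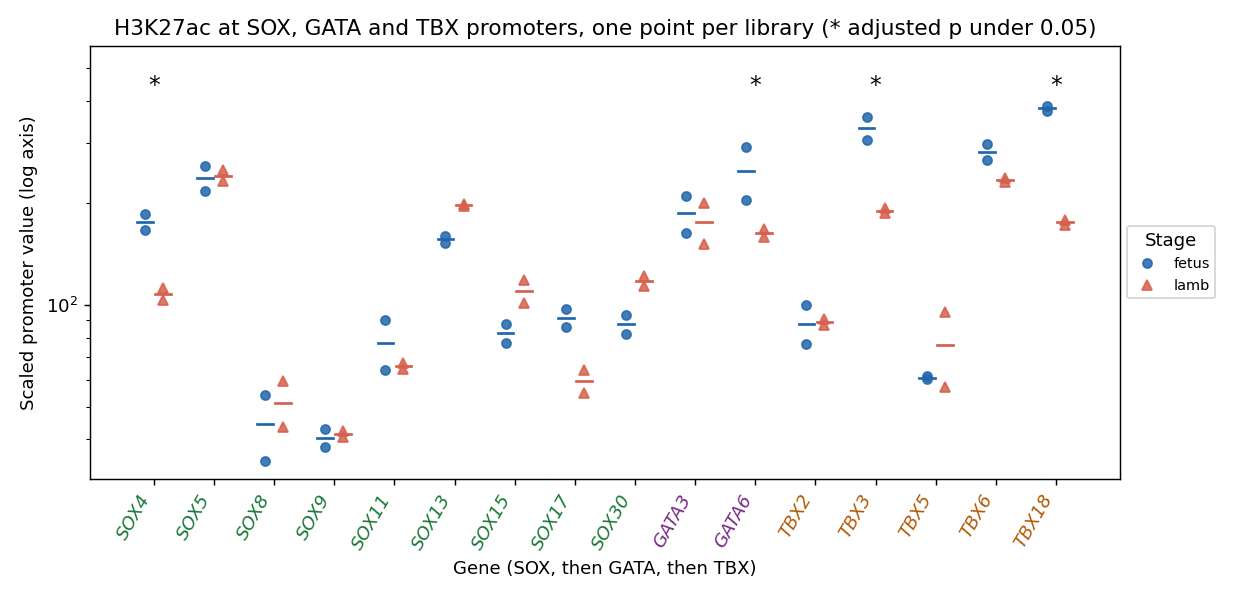
Each point is the H3K27ac promoter value (log axis) of 1 library at a SOX, GATA or TBX gene, blue circles for the 2 fetuses and red triangles for the 2 lambs, with a bar at each mean and an asterisk over called changes. TBX18, TBX3, SOX4 and GATA6 carry the asterisks, and at each of them both lambs lie under both fetuses.

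H3K4me3 is found at active and at poised promoters. None of the 27 listed genes passed the threshold (limma adjusted p under 0.05; 10.2% of all 12922 promoters did, 8.33% higher and 1.9% lower). Unadjusted p was under 0.05 at 7 of the 27, 3 with higher and 4 with lower values in lambs, against 35% of all promoters. The stages overlapped at 21 of the 27. Every lamb lay below every fetus at 3 (11.1%, against 22.8% of all promoters) and above at 3 (11.1%, against 25.7%).

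The strongest H3K4me3 promoters were those of the 4 genes whose H3K27ac fell. TBX18 had 1395 and 1448 in the fetuses and 903, 773 and 761 in the lambs (log2 change -0.81, SE 0.29, adjusted p = 0.0592). TBX3 had 1163 and 1333 in the fetuses and 931, 657 and 799 in the lambs (-0.66, adjusted p = 0.102). Every lamb was below both fetuses at these genes and at SOX4, which had 838 and 1194 in the fetuses and 802, 584 and 546 in the lambs (-0.65, adjusted p = 0.0938). GATA6 had 1683 and 1168 in the fetuses and 1303, 654 and 757 in the lambs (-0.70, adjusted p = 0.112), and lamb 1 overlapped with the fetuses. The median change of their level group was -0.54, and with cyclic loess their changes lay between -0.21 for TBX18 and -0.08 for GATA6. All 4 stayed above percentile 80 of the table in both stages (SOX4 86.3 and 81.3).

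A second set of TBX genes had higher H3K4me3 in lambs by value. TBX5 had 239 and 164 in the fetuses and 289, 365 and 395 in the lambs, all above the fetuses (0.80, SE 0.33, adjusted p = 0.0866). TBX4 had 290 and 55.7 in the fetuses and 199, 377 and 283 in the lambs (1.11, SE 0.44, adjusted p = 0.0786), and the fetuses were further apart than the stages. TBX21, which directs T helper 1 and natural killer cells, had 167 and 75.2 in the fetuses and 148, 251 and 266 in the lambs (0.93, adjusted p = 0.13). The median change of the level group was 0.39 for TBX4 and TBX5 and 1.09 for TBX21. With cyclic loess these changes were 0.45, 0.41 and 0.03 and none passed (adjusted p = 0.398, 0.726 and 0.97).

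The number of these genes called depended on fetus 1. Without it, 10 of the 27 passed, a setting in which 44% of all promoters did: TBX4, TBX5, TBX15, TBX21, GATA4, SOX21 and SOX30 were higher in lambs and TBX3, TBX18 and SOX4 lower. TBX4 then had a change of 2.29 (adjusted p = 3.21e-05), TBX15 0.77 (adjusted p = 0.0118) and GATA4 1.01 (adjusted p = 0.0319). Without fetus 2, GATA6 alone passed (-0.96, adjusted p = 0.0261), with 5.49% of all promoters. On the deposited scaling, in which the median promoter changed by -1.28, 13 of the 27 were lower and none higher (43.9% of all promoters were called).

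By level, SOX4 was the strongest SOX promoter of H3K4me3 in both stages and SOX15 the weakest, with 98.6 and 47.1 in the fetuses and 92.5, 164 and 154 in the lambs. Among the TBX genes TBX22, known from palate formation, was the weakest, with 117 and 84.5 in the fetuses and 108, 275 and 182 in the lambs (0.82, adjusted p = 0.21). GATA5 was the weakest GATA promoter, with 185 and 68.7 in the fetuses and 159, 162 and 128 in the lambs (0.40, adjusted p = 0.56). GATA4 had 213 and 135 in the fetuses and 207, 350 and 280 in the lambs (0.68, adjusted p = 0.173). The values of GATA3 were close within each stage, with 449 and 469 in the fetuses and 539, 519 and 476 in the lambs, all above the fetuses (0.15, adjusted p = 0.68).

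SOX9 had 274 and 137 in the fetuses and 165, 171 and 189 in the lambs (-0.15, adjusted p = 0.804). SOX17 had 311 and 263 in the fetuses and 260, 215 and 299 in the lambs (-0.16, adjusted p = 0.734). At both genes a lamb or more lay within the fetal range. TBX15 had 724 and 348 in the fetuses and 504, 693 and 602 in the lambs (0.24, adjusted p = 0.523). The fetuses enclosed all 3 lambs there, and at TBX20 they did so too, with 954 and 421 in the fetuses and 577, 693 and 621 in the lambs (-0.01, adjusted p = 0.978).

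**Figure D3:**
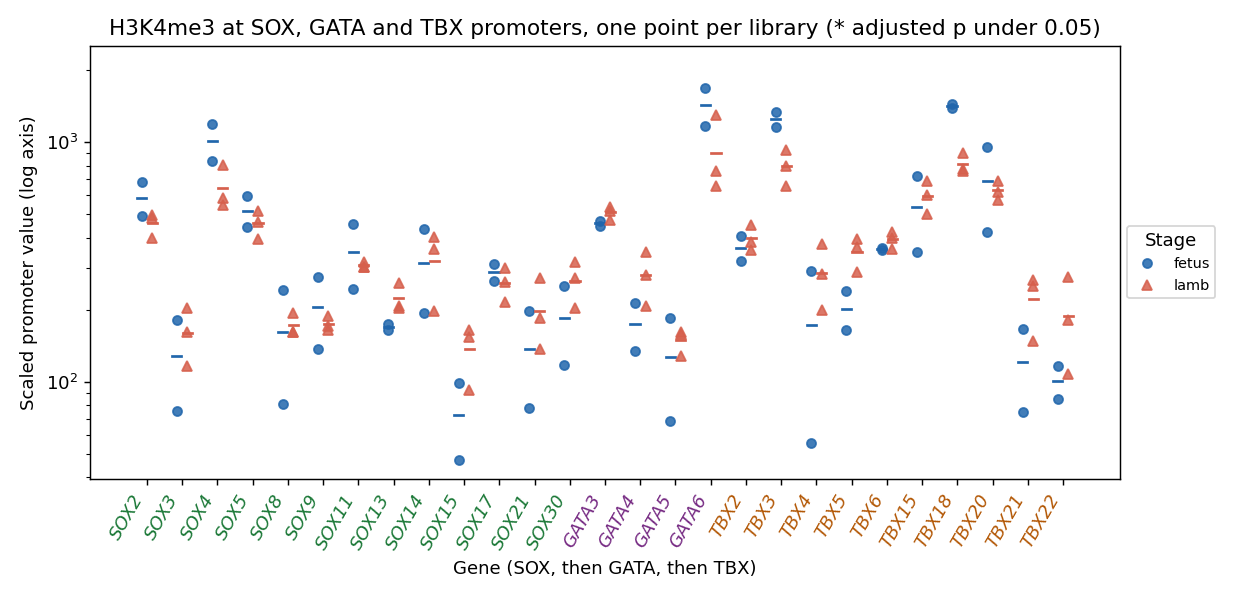
Each point is the H3K4me3 promoter value (log axis) of 1 library at a SOX, GATA or TBX gene, blue circles for the 2 fetuses and red triangles for the 3 lambs, with a bar at each mean. No gene carries an asterisk for a called change. At TBX4 the fetuses are the furthest apart, at 290 and 55.7, and at SOX4, TBX3 and TBX18 every lamb lies under both fetuses.

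H3K27me3 marks Polycomb silencing. Of the 21 listed genes, 8 fell between fetus and lamb (38.1%) and none rose: SOX2, SOX17 and SOX21 among 10 SOX genes, GATA3 and GATA4 among 4 GATA genes, and TBX15, TBX18 and TBX20 among 7 TBX genes (limma adjusted p under 0.05; among all 6334 promoters 13.2% were called, 8.83% lower and 4.42% higher). The median change was -0.37 for SOX, -0.59 for GATA and -0.53 for TBX, against 0.02 over all promoters, and 18 of the 21 changes were negative. Unadjusted p was under 0.05 at 10 of the 21, against 30.2% of all promoters. Every lamb lay below every fetus at 13 of the 21 (61.9%, against 29.3% of all promoters) and above at 2 (9.52%, against 30.5%).

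Much of this count goes with level. These genes are strong H3K27me3 promoters, and 12 of the 21 were in the strongest level group of the table, where 26.3% of all promoters fell and 60% had every lamb below every fetus. In that group 7 of the 12 fell (58.3%) and 11 had every lamb below every fetus (91.7%). Their median change was -0.62, against -0.37 for all promoters of the group. With cyclic loess, in which 3.88% of all promoters fell, only SOX21 and SOX17 of the 8 kept their calls.

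SOX21, a repressor of the neural SOX group, had 528 and 569 in the fetuses and 262 and 190 in the lambs. It fell by 1.29 (SE 0.23, adjusted p = 0.00145), from percentile 92.5 of the table to 66.7, and by 1.02 with cyclic loess (adjusted p = 0.00673). SOX17 had 259 and 310 in the fetuses and 105 and 177 in the lambs, and it fell by 1.05 (SE 0.30, adjusted p = 0.0256), or by 1.13 with cyclic loess (adjusted p = 0.0217). SOX17 moved from percentile 75.5 to 33, while the median promoter of its level group had a change of 0.09. It rests on 77 and 92 reads in the fetuses and 32 and 43 in the lambs.

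GATA4 had 870 and 976 in the fetuses and 367 and 491 in the lambs. It fell by 1.12 (SE 0.18, adjusted p = 0.000945), stayed among the strongest promoters of the table (percentile 98.6 and 93.1), and had a change of -0.58 with cyclic loess (adjusted p = 0.0552). GATA3 had 598 and 653 in the fetuses and 419 and 387 in the lambs (-0.63, SE 0.19, adjusted p = 0.0302, or -0.19 and 0.579 with cyclic loess). The lambs were far apart at GATA5, with 104 and 155 in the fetuses and 164 and 45.3 in the lambs, the last from 11 reads (-0.55, adjusted p = 0.449). GATA6 was the weakest fetal GATA promoter of this mark, with 90.7 and 114 in the fetuses and 157 and 132 in the lambs (0.49, adjusted p = 0.349), and it is 1 of the 2 genes with both lambs above both fetuses.

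TBX20 had the most H3K27me3 of the TBX genes in fetuses, 965 and 1057, against 603 and 668 in the lambs. It fell by 0.67 (SE 0.16, adjusted p = 0.00929), yet it held percentile 99 and then 98.7 of the table, and with cyclic loess its change was -0.03 (adjusted p = 0.934). TBX15 had 639 and 788 in the fetuses and 465 and 462 in the lambs (-0.61, SE 0.18, adjusted p = 0.0305, or -0.11 and 0.753 with cyclic loess). TBX18 had 423 and 407 in the fetuses and 219 and 268 in the lambs (-0.77, SE 0.23, adjusted p = 0.0291, or -0.56 and 0.147 with cyclic loess). SOX2 had 504 and 761 in the fetuses and 344 and 363 in the lambs (-0.81, SE 0.21, adjusted p = 0.0166, or -0.40 and 0.259 with cyclic loess). At all of these genes both lambs lay below both fetuses.

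The other listed TBX genes had strong H3K27me3 in both stages and did not pass. TBX4 had 813 and 852 in the fetuses and 848 and 585 in the lambs (-0.24, adjusted p = 0.374), and in lambs it was the strongest TBX promoter, at percentile 99.3. TBX21 had 568 and 522 in the fetuses and 439 and 404 in the lambs (-0.37, adjusted p = 0.198), at percentile 92.4 and 92.7. TBX5 had 474 and 505 in the fetuses and 436 and 379 in the lambs (-0.27, adjusted p = 0.372). TBX2 had 504 and 438 in the fetuses and 380 and 276 in the lambs (-0.53, adjusted p = 0.107). TBX3, the neighbour of TBX5, is not in this table.

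SOX14, a neural repressor, was the strongest SOX promoter of H3K27me3, with 642 and 727 in the fetuses and 583 and 466 in the lambs (-0.39, adjusted p = 0.156). SOX8 was the weakest, with 94.1 and 114 in the fetuses and 95 and 70.1 in the lambs (-0.34, adjusted p = 0.589). SOX9 had 118 and 135 in the fetuses and 183 and 103 in the lambs (0.13, adjusted p = 0.836). SOX10 had 141 and 182 in the fetuses and 278 and 185 in the lambs (0.50, adjusted p = 0.261), so that the lambs were higher by a small margin. SOX5, SOX11 and SOX30 had changes of -0.46, -0.23 and -0.21, and none passed.

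The 8 calls rest on few libraries. Without lamb 2 no promoter of the whole H3K27me3 table passed in limma (1797 had an unadjusted p under 0.05), and the adjusted p of the 8 genes ran from 0.135 to 0.186 with the same direction. Without fetus 1, with 2.34% of all promoters called, the calls of GATA3 (adjusted p = 0.199), SOX17 (0.129), TBX15 (0.137), TBX18 (0.254) and TBX20 (0.134) were lost. Without fetus 2, with 1.58% called, those of GATA3 (0.393), SOX2 (0.474), SOX17 (0.353), TBX15 (0.497), TBX18 (0.252) and TBX20 (0.311) were lost. Without lamb 1, with 22.2% called, SOX17 stood at 0.0502, and GATA5 (0.00727), SOX14 (0.0177), TBX2 (0.00457) and TBX4 (0.0189) passed as lower. GATA4 and SOX21 kept their calls in all settings that left out a library except the one without lamb 2 (0.135 each).

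**Figure D4:**
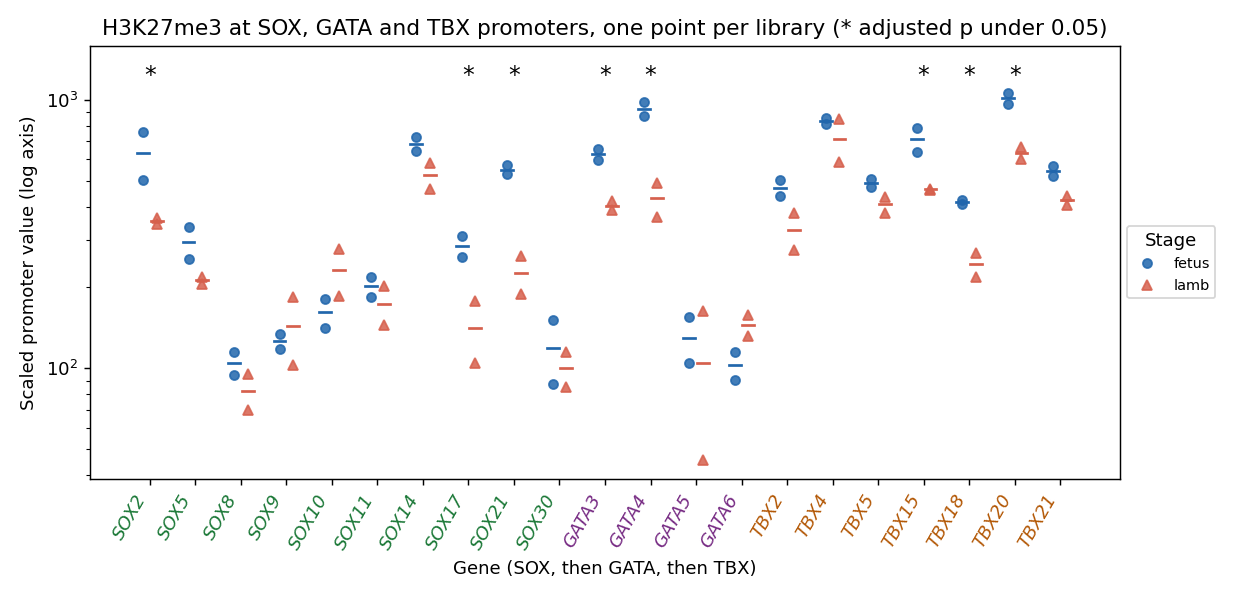
Each point is the H3K27me3 promoter value (log axis) of 1 library at a SOX, GATA or TBX gene, blue circles for the 2 fetuses and red triangles for the 2 lambs, with a bar at each mean and an asterisk over called changes. Asterisks mark SOX2, SOX17, SOX21, GATA3, GATA4, TBX15, TBX18 and TBX20, and only SOX10 and GATA6 have both lambs above both fetuses.

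Set side by side, the changes of the main fit came in different combinations from gene to gene. Of the H3K27me3 falls named here, only those of SOX17 and SOX21 kept their calls with cyclic loess. Those of TBX18, GATA3, GATA4, SOX2, TBX15 and TBX20 did not, with changes from -0.58 at GATA4 to -0.03 at TBX20 in that setting. TBX18 fell in H3K27ac (-1.11) and in H3K27me3 (-0.77), and its H3K4me3 change was -0.81 (adjusted p = 0.0592). SOX17 fell in H3K27me3 (-1.05) without a call in H3K27ac (-0.62, adjusted p = 0.0963), and its H3K4me3 change was -0.16. GATA6 fell in H3K27ac (-0.58), with an H3K27me3 change of 0.49 that did not pass. SOX4 and TBX3 fell in H3K27ac and are not in the H3K27me3 table. GATA4, SOX2, SOX21, TBX15 and TBX20 fell in H3K27me3, are not in the H3K27ac table, and had H3K4me3 changes from -0.34 at SOX2 to 0.68 at GATA4, none of which passed. No gene passed as lower in H3K27me3 and higher in H3K27ac. GATA3 fell in H3K27me3 with overlapping H3K27ac values.

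**Figure D5:**
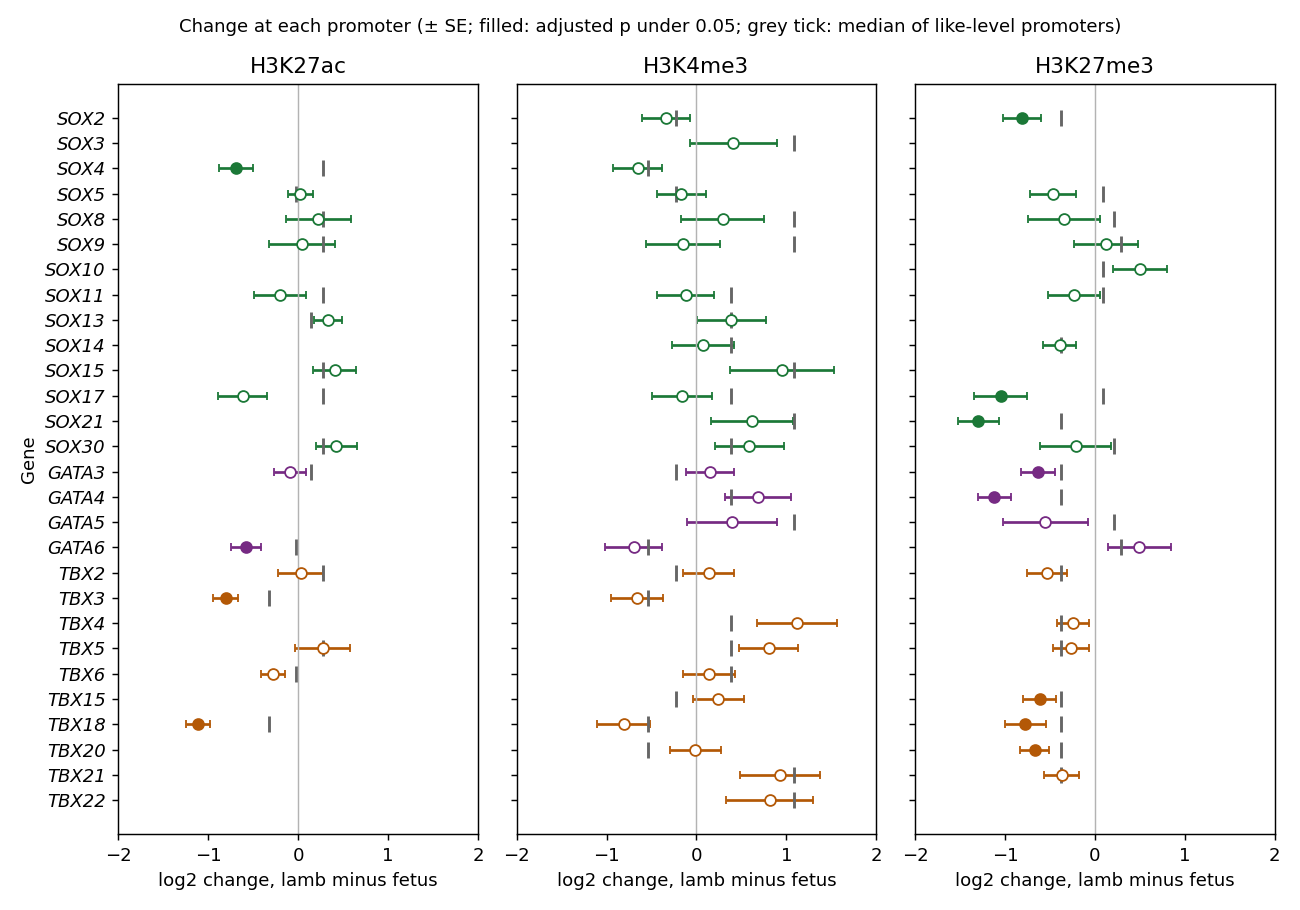
The log2 change from fetus to lamb with its SE is shown for each SOX (green), GATA (purple) and TBX (orange) gene in the 3 marks, filled where the adjusted p was under 0.05, with a grey tick at the median change of promoters in the same level group. Filled points appear at 4 genes in H3K27ac, none in H3K4me3 and 8 in H3K27me3, all to the left of 0, and TBX18 is filled in both H3K27ac and H3K27me3.

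Partners and relatives of the families were read in the same way. Of 15 GATA partners and related blood regulators, 10 were in the H3K27me3 table and 5 of them fell: RUNX1 (-1.40, adjusted p = 0.00112), TRPS1, an atypical GATA repressor (-1.79, adjusted p = 0.021), FLI1 (-1.14, adjusted p = 0.0435), TAL1 (-0.78, adjusted p = 0.00783) and HAND2 (-0.74, adjusted p = 0.0297). Over all H3K27me3 promoters 8.83% fell, and 26.3% of the strongest level group, which holds RUNX1, TAL1 and HAND2. Of these partners RUNX1, TRPS1 and FLI1 kept the call with cyclic loess. TRPS1 is a weak promoter of this mark, with 108 and 141 in the fetuses and 42.6 and 28.9 in the lambs. The lowest maximum of a listed H3K27me3 promoter was a deposited value of 51.5, and on that scale both lambs lie under it. TRPS1 was thus listed through the stage where it is high, and its fall cannot be set apart from that selection. Its mean of 80.1 left it out of the setting with a mean value of at least 100. FLI1 lost its call in that setting (limma adjusted p = 0.0567) and with column totals (0.0665). HAND2 lost its call with column totals (0.0624) and on deposited values (0.0703). In H3K27ac, with 8 listed, MEF2C fell by 1.19 (adjusted p = 2.94e-05) and ZFPM1, the GATA cofactor FOG1, rose by 0.59 (adjusted p = 0.0347, or 0.222 with cyclic loess). Over all H3K27ac promoters 17.7% fell and 11.4% rose. MEF2C is in the strongest level group, where 46.4% fell, and its change with cyclic loess was -0.80 (limma adjusted p = 0.00132). MEF2C kept its call when each library was left out, and ZFPM1 lost it without lamb 1 (0.367) or lamb 2 (0.316).

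The list of other T-box genes and partners held 15 names, of which T and TBXT both stand for Brachyury, and TBXT was not listed in any mark. Of the 15 names, 9 were in the H3K27me3 table and 4 fell: SALL4 (-1.24, adjusted p = 0.000934), the corepressor TLE2 (-1.20, adjusted p = 0.00635), the hindlimb gene PITX1 (-0.92, adjusted p = 0.003) and the T-box gene TBR1 (-0.81, adjusted p = 0.0035). All 4 are in the strongest level group, where 26.3% of all promoters fell. SALL4 and TLE2 kept the call with cyclic loess. In H3K27ac, with 6 listed, the corepressors TLE4 (-0.78, adjusted p = 0.00523) and TLE3 (-0.72, adjusted p = 0.0112) fell, and without lamb 1 their adjusted p was 0.114 and 0.26, with TLE3 at 0.0768 without lamb 2. Over all H3K27ac promoters 17.7% fell and 11.4% rose. With cyclic loess TLE4 (-0.93, limma adjusted p = 0.00416) and TLE3 (-0.94, 0.00483) kept their calls, a setting in which 10.2% of all promoters fell. Of the 13 HMG-box relatives of the SOX genes and their Wnt partners, 7 were in the H3K27ac table, 5 in the H3K4me3 table and 2 in the H3K27me3 table, and none passed in limma (unadjusted p was under 0.05 at 1, 0 and 0). In H3K4me3 none of the listed partners of any family passed (unadjusted p was under 0.05 at 3 of the 11 GATA partners and 0 of the 11 T-box partners, against 35% of all promoters). All H3K27me3 calls of these partners were lost without lamb 2 (adjusted p 0.135 to 0.155). Without fetus 1 or without fetus 2, RUNX1 and SALL4 kept theirs in both settings, PITX1 and TBR1 kept theirs in the first (0.0448 and 0.0314), TLE2 in the second (0.023), and TAL1, TRPS1, FLI1 and HAND2 in neither.

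In bulk tissue, fewer cells of a type and less of a mark per cell cannot be told apart, and markers of several cell types moved between the stages. The counts below stand against 17.7% lower and 11.4% higher of all H3K27ac promoters (46.4% lower in the strongest level group), 1.9% and 8.33% in H3K4me3, and 8.83% and 4.42% in H3K27me3, and counts of 1 of 3 or 4 are too few to set apart from these. Stromal and preadipocyte markers, listed for the cells in which TBX18, TBX15 and SOX4 may act, had 5 lower and 1 higher of 8 in H3K27ac, and their summed promoter value was 2697 to 3093 in fetuses and 1839 to 2017 in lambs. Adipocyte markers had 4 lower of 6 (2260 to 2646 and 1542 to 1560), brown adipocyte markers had 3 lower of 4 (1121 to 1228 and 688 to 735, median change -0.86), and endothelial markers, listed for SOX17, had 3 lower of 8 (2219 to 2454 and 1995 to 2094). T and natural killer cell markers, listed for GATA3 and TBX21, had 4 higher of 7 in H3K27ac (778 to 795 and 1154 to 1331). In H3K4me3 they had 3 higher of 6 (468 to 744 and 1036 to 1697). These 6 are mostly weak H3K4me3 promoters (median percentile 16.3 in fetuses). Their median change was 1.20, against 1.09 in the weakest level group, where 513 of 3230 promoters were called higher. With cyclic loess 0 H3K4me3 promoters were called. In H3K27me3 the T and natural killer cell markers had 1 higher of 6 (1404 to 1506 and 1439 to 1690, median change 0.03). Mesothelial markers, listed for TBX18 and GATA4, had 1 higher of 3 in H3K27ac (366 to 405 and 424 to 425) and 1 lower of 4 in H3K27me3 (1444 to 1701 and 1202 to 1270). Adrenal steroid markers, listed for GATA4 and GATA6, had 1 higher of 3 in H3K27ac (596 to 602 and 660 to 680), and this was NR5A1. NR5A1 had 29.2 and 25.5 in the fetuses and 65.0 and 74.3 in the lambs (1.32, against a median of 0.27 in its level group). The lowest maximum of a listed H3K27ac promoter was a deposited value of 50.2, and on that scale both fetuses lie under it. NR5A1 was thus listed through the lambs, where it is high, and its rise cannot be set apart from that selection. Schwann cell markers, listed for SOX10, had 1 lower of 3 in H3K27me3 (907 to 1013 and 569 to 721). In H3K4me3 they had 1 higher of 2 (238 to 269 and 365 to 736), which was S100B (1.71, adjusted p = 0.00984). Like every other H3K4me3 promoter, S100B had no call with cyclic loess. Smooth muscle markers, listed for GATA6, had 1 higher and 1 lower of 3 in H3K27ac (498 to 549 and 557 to 578). No listed marker was at 0 in any library, and the part of these cells in the changes of the SOX, GATA and TBX promoters was not tested.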

How the data were processed

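Native chromatin was immunoprecipitated and sequenced as single-end reads, mapped to Oar_v3.1 with CLC Genomics Workbench, per the labels; bedtools 2.19.0, edgeR and MACS are named in the submitters' processing notes without their roles. The promoter values the authors deposited are a scaled signal with 1 factor per library, whose basis the labels do not state; each is a whole multiple of the library's value of 1 read. Each library was divided by its column total times a TMM factor, log-transformed with a pseudocount of 1, and the stages were compared by limma-trend (limma 3.58.1, R 4.3.3; stage as the only term; Benjamini-Hochberg adjustment within each table). The procedure was tested on simulated data with independent noise. These held no dependence of the change on level and no fetus that stood apart, so the simulation does not cover those features. The smallest two-sided p an exact permutation test could reach for 1 promoter is 0.333 with 2 libraries a stage and 0.2 with 2 and 3.

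The design foresaw a count test if the tables held counts, and limma otherwise, which was used. Libraries were grouped by their labels. The genes, lists and tests were chosen with earlier results of these data known. Genes were named if they passed in any mark, if they were the highest or lowest of their family in a mark and stage, or if they were on a list of 17 factors of fat, vessels, nerve and immune cells; partners were named if they passed, at most 6 a list. The 1 blank row of the H3K27me3 table was left out, and the peak tables were not used here.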

Additional observations from a re-analysis of the deposited data

How the results depend on the processing

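With 2 or 3 libraries a stage and 324662 to 430345 promoter reads in each H3K27me3 library, small changes at weak promoters were not detectable. No called gene of the 3 families changed direction in any setting tried. Counts of called promoters under the main and other settings were as follows. Over all H3K27ac promoters 3849 passed (1508 higher, 2341 lower), with column totals 4103 (2314 and 1789), on deposited values 4179 (167 and 4012), and with cyclic loess 2486. Among SOX genes 1 passed in H3K27ac, and 2 with deposited values, cyclic loess or a replicate block. Over all H3K4me3 promoters 1322 passed (1077 and 245), with column totals 1337 (1160 and 177), on deposited values 5678 (55 and 5623), with cyclic loess 0 (1738 at an unadjusted p under 0.05), at a mean value of at least 100 717, and without lambs 2 and 3 0 (102 at an unadjusted p under 0.05). On deposited values 9 SOX, 2 GATA and 2 TBX genes and 16 partners passed in H3K4me3, against 0. Over all H3K27me3 promoters 839 passed (280 and 559), with column totals 803 (435 and 368), on deposited values 540 (134 and 406), and with cyclic loess 394. Called GATA genes then numbered 1, 1 and 0 against 2, TBX genes 1, 1 and 0 against 3, and with cyclic loess SOX genes 2 against 3 and partners 5 against 9. With column totals the median change over all promoters was 0.11, 0.13 and 0.13 in H3K27ac, H3K4me3 and H3K27me3. In the main fit it was 0.02, 0.003 and 0.02, and on deposited values it was -0.30 in H3K27ac. The cause of these differences was not tested.

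A library left alone in its stage was assumed to vary like the others. When 1 library was left out, the counts ran from 1177 to 5846 (all), 0 to 4 (SOX), 0 to 1 (GATA), 2 to 3 (TBX) and 1 to 12 (partners) in H3K27ac; from 12 to 5680, 0 to 3, 0 to 1, 0 to 6 and 0 to 11 in H3K4me3; and from 0 to 1405, 0 to 3, 0 to 3, 0 to 5 and 0 to 13 in H3K27me3. A fetus and a lamb that share a number are different animals, so the numbers do not pair libraries, and deviations of same-numbered libraries correlated at 0.277 in H3K27ac, -0.394 in H3K4me3 and 0.0988 in H3K27me3. With a replicate block 5255, 3 and 1252 promoters passed in these marks, and every called gene of the 3 families kept its call. Because the block groups different animals, these kept calls carry no weight of their own. The block was fitted without lamb 3 in H3K4me3, and without lamb 3 but with no block 12 promoters passed there. A planned count test on reads recovered from the scaled values was not run.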
